A study of Mus musculus with 8 samples.

Results

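The simple epithelial keratins are the 6 genes Krt7, Krt8, Krt18, Krt19, Krt20 and Krt23. They were picked by symbol from the table of scaled counts and joined by Ensembl identifier to the table of raw counts, where all 6 were found among 53801 genes; 55 of these genes carry a keratin symbol. The 8 libraries, each labelled with a mouse, came from Lgr5-GFP+ cells of animals carrying Lgr5-EGFP-IRES-CreERT2, an allele that places GFP and a tamoxifen-inducible Cre under the Lgr5 gene. Cre activates a stabilised β-catenin (β-catGOF) in both genotypes. The 4 mice labelled β-catGOF; Mll1-/- were meant to lose both alleles of Mll1, a histone methyltransferase encoded by Kmt2a, and the 4 mice labelled β-catGOF; Mll1+/- a single allele, so the controls also carried the β-catenin mutation and 1 deleted Mll1 allele. Tamoxifen (50 mg/kg) was injected on 3 days at 4 to 6 weeks of age and cells were taken 10 days after induction. GFP marks cells that express Lgr5 whether or not Cre has recombined, and no wild-type sample was part of the comparison.

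Keratins form the intermediate filaments of epithelial cells. Each filament is built from pairs of an acidic type I chain and a basic type II chain, and a chain without a partner is degraded. Simple, single-layered epithelia such as the intestinal lining use Krt8 with Krt18 and Krt19, and in the intestine Krt20 is known as a keratin of the differentiated cells of the villus and the colonic surface. Krt7 is a type II keratin typical of ducts and other glandular linings, and Krt23 is a divergent type I chain whose function is less well known.

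The libraries held between 14468751 and 16847793 counts on genes. Library J_7135, labelled Mll1-/-, lay apart from the others, with a median Spearman correlation over genes of 0.903 with the other libraries against 0.939 to 0.954 for the rest. It also held both Xist (208 CPM) and Y-linked transcripts (165 CPM), whereas in each other library the lower of the pair was at most 2.84 CPM; sex is not labelled. Whether J_7135 holds cells of more than 1 mouse was not tested, so the n of 4 for its genotype rests on the labels. Each fold change of a keratin is therefore also given without J_7135. Levels are in CPM, a gene's counts set against the size of the library after TMM scaling. Kmt2a was not lower in the libraries labelled Mll1-/- (63.5 ± 10.7 against 53.8 ± 7.45 CPM, SD, n = 4 each), and as the counts cover the whole gene and do not separate the deleted exons, libraries are named here by their labels. The epithelial marker list (Epcam, Cdh1, Vil1, Cldn7 and Cdh17) summed to 2057 to 2739 CPM over the 8 libraries. Against this, the immune markers reached 6.50 CPM at most, the stromal markers 2.82, the endothelial markers 6.11, the tuft markers 9.15 and the stratified-epithelial markers 3.49. The epithelial sum overlapped between the genotypes, at 2161 to 2739 CPM in libraries labelled Mll1-/- and 2057 to 2386 CPM in the others. All 5 epithelial genes leaned higher in libraries labelled Mll1-/-. Vil1 did so without overlap (179 against 134 CPM), as 3.34% of all genes did, and Cldn7 (310 against 225 CPM) overlapped. The sums of some lists moved with the genotype. The Lgr5 stem markers summed to 8895 to 15478 CPM in libraries labelled Mll1-/- and 20110 to 23843 CPM in those labelled Mll1+/-, carried by Olfm4. The list did not move as a whole. Axin2 was higher without overlap in the libraries labelled Mll1-/- (226 against 167 CPM), and Lgr5 (261 against 271 CPM), Smoc2 (358 against 352 CPM) and Ascl2 (80.2 against 106 CPM) overlapped. The enteroendocrine markers summed to 0.722 to 6.72 against 7.30 to 68.1 CPM, and the list for mesothelium and ducts, carried by Sox17, to 0.325 to 0.826 against 3.02 to 5.29 CPM. The Paneth markers (1257 to 2456 against 1900 to 4639 CPM), goblet markers (638 to 1155 against 594 to 785 CPM) and enterocyte markers (380 to 671 against 605 to 699.9 CPM) overlapped. Mitochondrial genes took 17.1 to 27.1% of the counts in libraries labelled Mll1-/- and 23.3 to 30.1% in the others. Their part in the keratin values below was not tested beyond a fit with the mitochondrial share as a term.

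Krt7, Krt8 and Krt18 lie on chromosome 15 of GRCm38, and Krt23, Krt20 and Krt19 on chromosome 11. Krt8 (ENSMUSG00000049382, minus strand, 101996698 to 102004482) and Krt18 (ENSMUSG00000023043, plus strand, 102028180 to 102032027) stand head to head with 23.7 kb between them, although Krt18 is a type I keratin and its relatives are clustered on chromosome 11. Krt7 (ENSMUSG00000023039, plus strand, 101411043 to 101430313) lies 566 kb from Krt8. On chromosome 11, Krt20 (ENSMUSG00000035775, 99428403 to 99438150) and Krt23 (ENSMUSG00000006777, 99477974 to 99493137) are 39.8 kb apart, and Krt19 (ENSMUSG00000020911, 100140810 to 100148665) lies 648 kb from Krt23; all 3 are on the minus strand. The counts were summed over all annotated exons of a gene.

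The start regions of Krt8 and Krt18, the partner chains that varied in parallel, and of Krt7 and Krt23, whose libraries separated with Krt8's by genotype, are printed here so that the sequences upstream can be compared. Each is the RefSeq window of GRCm38.p6 of 250 bases before the RefSeq start and the first 50 bases from it, 5′ to 3′ on the gene's strand. The RefSeq starts differ from the starts of the counted Ensembl genes. The Krt7 window lies wholly inside the counted gene. In the windows of Krt8, Krt18 and Krt23, part of the bases before the RefSeq start also lie in the counted gene. Capitals mark matches on either strand to TATAAA, the TATA box, to GGGCGG, the GC box, to CCAAT, the CCAAT box, to TGANTCA, the AP-1 site, to CTTTGA, the core of TCF/LEF sites, or to CACCC, the box bound by Klf factors.
Krt8, chr15:102004293-102004592, minus strand: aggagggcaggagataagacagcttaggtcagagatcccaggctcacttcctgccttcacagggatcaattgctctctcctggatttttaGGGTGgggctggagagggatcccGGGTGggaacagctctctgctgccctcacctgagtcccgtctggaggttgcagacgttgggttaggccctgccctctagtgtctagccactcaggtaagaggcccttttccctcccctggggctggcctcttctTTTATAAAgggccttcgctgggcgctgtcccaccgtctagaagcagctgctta
Krt18, chr15:102027966-102028265, plus strand: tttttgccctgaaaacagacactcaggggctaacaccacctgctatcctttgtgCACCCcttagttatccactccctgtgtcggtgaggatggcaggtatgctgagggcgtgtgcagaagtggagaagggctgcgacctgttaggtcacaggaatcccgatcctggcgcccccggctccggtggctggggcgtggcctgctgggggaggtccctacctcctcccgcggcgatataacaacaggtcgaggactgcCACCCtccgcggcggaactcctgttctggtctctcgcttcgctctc
Krt7, chr15:101412153-101412452, plus strand: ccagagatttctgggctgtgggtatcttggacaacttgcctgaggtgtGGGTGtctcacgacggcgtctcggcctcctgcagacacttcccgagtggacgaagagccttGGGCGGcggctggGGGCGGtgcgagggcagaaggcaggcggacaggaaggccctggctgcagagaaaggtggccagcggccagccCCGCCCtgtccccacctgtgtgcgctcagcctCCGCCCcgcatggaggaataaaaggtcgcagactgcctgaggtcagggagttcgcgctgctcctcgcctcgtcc
Krt23, chr11:99493071-99493370, minus strand: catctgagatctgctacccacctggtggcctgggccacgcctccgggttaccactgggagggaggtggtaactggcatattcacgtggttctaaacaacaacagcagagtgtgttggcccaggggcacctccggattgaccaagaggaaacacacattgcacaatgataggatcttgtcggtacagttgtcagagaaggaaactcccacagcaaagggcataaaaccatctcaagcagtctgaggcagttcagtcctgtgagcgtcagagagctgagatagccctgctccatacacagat

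The 4 windows shared no matched motif. Krt7 held the GC box at 4 positions, at -141 and -128 on its own strand and at -56 and -24 on the other, and was the richest in G and C (66.3%, against a median of 52.7% over 32851 windows). Krt8 held TATAAA on both strands in overlapping copies, starting at -1 and -3 from the RefSeq start. The box CACCC occurred in Krt7 (-202), Krt8 (-160 and -137) and Krt18 (-196 and 5), and Krt23 held none of the 6 motifs. The CCAAT box, the AP-1 site and the TCF/LEF core occurred in none of the 4. Of all windows, 13.6% held TATAAA, 35.7% GGGCGG, 37.4% CCAAT, 7.81% TGANTCA, 16.0% CTTTGA and 57.5% CACCC, so these matches are of common letters and are given as a description of the printed sequences.

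The question put to the values was whether the keratins of Lgr5-GFP+ β-catGOF cells differ with the loss of the remaining Mll1 allele. Each library is labelled with 1 mouse and was counted as 1 replicate. Fold changes are those of edgeR's quasi-likelihood test, as the log2 of Mll1-/- over Mll1+/-, with p-values adjusted by Benjamini-Hochberg across all 16445 tested genes. A gene counted as called where its adjusted p was under 0.1. Fewer positive cells and less RNA per cell cannot be told apart in these bulk libraries.

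Krt8 is the main type II chain of the intestinal epithelium. In the libraries labelled Mll1-/- it was at 469 CPM in J_7075, 376 in J_7096, 623 in J_7135 and 456 in J_7136. In the libraries labelled Mll1+/- it was at 307 CPM in J_7079, 303 in J_7100, 318 in J_7134 and 365 in J_7139. Every library labelled Mll1-/- lay above every library labelled Mll1+/-, with the smallest gap between J_7096 and J_7139. The means were 481 ± 103 and 323 ± 28.2 CPM (SD, n = 4 each), a log2 fold change of 0.57 (SE 0.15, adjusted p = 0.304, edgeR). Without J_7135 it was 0.42 (SE 0.12, adjusted p = 0.264, edgeR).

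Krt18, the type I partner of Krt8, had the highest level. It was at 679.6 CPM in J_7075, 644 in J_7096, 1271 in J_7135 and 991 in J_7136 of the libraries labelled Mll1-/-. It was at 516 CPM in J_7079, 439 in J_7100, 569 in J_7134 and 649.6 in J_7139 of those labelled Mll1+/-. The groups touched, since J_7139 stood slightly above J_7096, and the highest values were those of J_7135 and J_7136. With means of 896 ± 294 and 543 ± 88.6 CPM (SD, n = 4 each), the log2 fold change was 0.72 (SE 0.22, adjusted p = 0.401, edgeR), and 0.50 (SE 0.18, adjusted p = 0.408, edgeR) without J_7135.

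Krt19, a short type I chain that pairs with Krt8, was at 195 CPM in J_7075, 226 in J_7096, 388 in J_7135 and 298 in J_7136. The libraries labelled Mll1+/- lay close together, at 250.6 CPM in J_7079, 221 in J_7100, 222 in J_7134 and 219 in J_7139. They fell inside the range of the libraries labelled Mll1-/-, of which J_7075 was the lowest of all 8. With means of 277 ± 85.8 and 228 ± 15.0 CPM (SD, n = 4 each), the log2 fold change was 0.28 (SE 0.20, adjusted p = 0.722, edgeR), and 0.07 without J_7135 (SE 0.15, adjusted p = 0.942, edgeR).

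**Figure D1:**
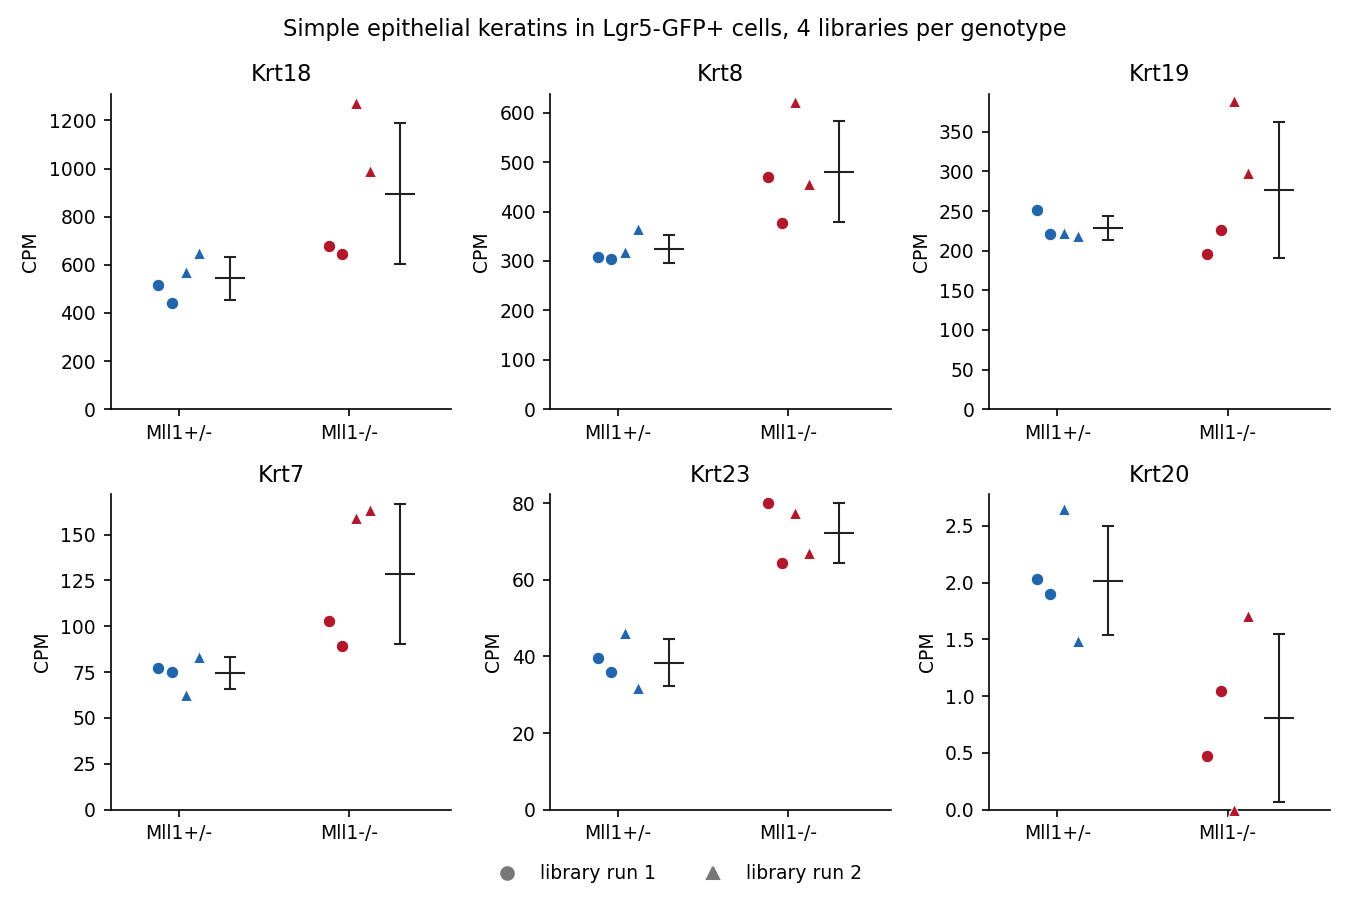
CPM of each keratin (y axis, starting at 0) in the 4 libraries of each genotype (x axis), with circles and triangles for the first and second run of library numbers and the mean ± SD beside the points. Krt23, Krt7 and Krt8 separate the genotypes without overlap, Krt18 does so but for J_7139 (649.6 CPM) and J_7096 (644 CPM), and Krt19 and Krt20 overlap.

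Krt7, the ductal type II chain, was at 103 CPM in J_7075, 89.3 in J_7096, 159 in J_7135 and 164 in J_7136. In the libraries labelled Mll1+/- it was at 77.2 CPM in J_7079, 75.1 in J_7100, 62.4 in J_7134 and 83.4 in J_7139. The groups did not overlap, and the distance between them was wider for J_7135 and J_7136 than for J_7075 and J_7096. With means of 129 ± 38.1 and 74.5 ± 8.81 CPM (SD, n = 4 each), the log2 fold change was 0.79 (SE 0.21, adjusted p = 0.320, edgeR), and 0.67 (SE 0.21, adjusted p = 0.328, edgeR) without J_7135.

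Krt23, the divergent type I chain, showed the largest difference relative to its spread. It was at 79.95 CPM in J_7075, 64.3 in J_7096, 77.5 in J_7135 and 66.9 in J_7136, and at 39.6 CPM in J_7079, 35.8 in J_7100, 46.1 in J_7134 and 31.8 in J_7139. The lowest library labelled Mll1-/- lay well above the highest labelled Mll1+/-. With means of 72.2 ± 7.72 and 38.3 ± 6.08 CPM (SD, n = 4 each), the log2 fold change was 0.91 (SE 0.16, adjusted p = 0.139, edgeR), a 1.88-fold higher level. Here J_7135 mattered little, as the log2 fold change without it was 0.88 (SE 0.17, adjusted p = 0.122, edgeR). By its p, Krt23 ranked number 26 of all genes tested.

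Krt20, the keratin of differentiated cells, was near the lower end of what was measured. The libraries labelled Mll1-/- held 8 counts in J_7075, 18 in J_7096, 0 in J_7135 and 26 in J_7136, and those labelled Mll1+/- held 34 in J_7079, 27 in J_7100, 33 in J_7134 and 23 in J_7139. In CPM this was 0.806 ± 0.737 against 2.02 ± 0.481 (SD, n = 4 each), and the groups overlapped through J_7136 and J_7139. The 0 in J_7135 allows up to 0.162 CPM, the level of 3 counts there, for counting error only. The log2 fold change was -1.32 (SE 0.92, adjusted p = 0.712, edgeR) and -0.91 (SE 0.55, adjusted p = 0.701, edgeR) without J_7135, and it was -0.35 with the mitochondrial share as a term.

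None of the 6 keratins passed the threshold in edgeR, where 14 genes, or 0.0851% of those tested, did. At an unadjusted p under 0.05, 4 of the 6 (Krt8, Krt18, Krt7 and Krt23) were higher in the libraries labelled Mll1-/-, against 5.4% of all genes, and 0 were lower, against 3.75%. For 3 of the 6 (Krt8, Krt7 and Krt23) the libraries lay higher without overlap, which held for 3.34% of all genes. The exact permutation test over the 70 assignments of the libraries gave p = 0.0286 for each of these 3, the smallest it can give, p = 0.0571 for Krt18 and for Krt20 and p = 0.343 for Krt19 (two-sided). The median log2 fold change of the 6 was 0.65 and that of all genes tested 0.01. The calls differed between tools, and the tests were compared on simulated counts of this design, with spreads taken from edgeR's estimates. There 40.2% of the calls of DESeq2 were false, 5.88% of those of edgeR and 5.48% of those of limma-voom. Of genes simulated with a log2 fold change of 1 in either direction, edgeR called 19.8%, DESeq2 37.5% and limma-voom 16.7%. Changes under 1, as in the keratins that were higher, were not simulated. The simulation was a single draw in which few of the genes were changed. A share of false calls depends on how many genes change, so these shares do not carry over to calls on the real libraries. DESeq2's Wald test, the tool of the study's methods, called 4 of the 6, namely Krt23 (adjusted p = 5.98e-05), Krt7 (0.0354), Krt8 (0.05005) and Krt18 (0.0903), beside 1.4% of all genes called higher. In limma-voom with quality weights Krt23 alone was called (adjusted p = 0.0556), beside 0.341% of all genes called higher.

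**Figure D2:**
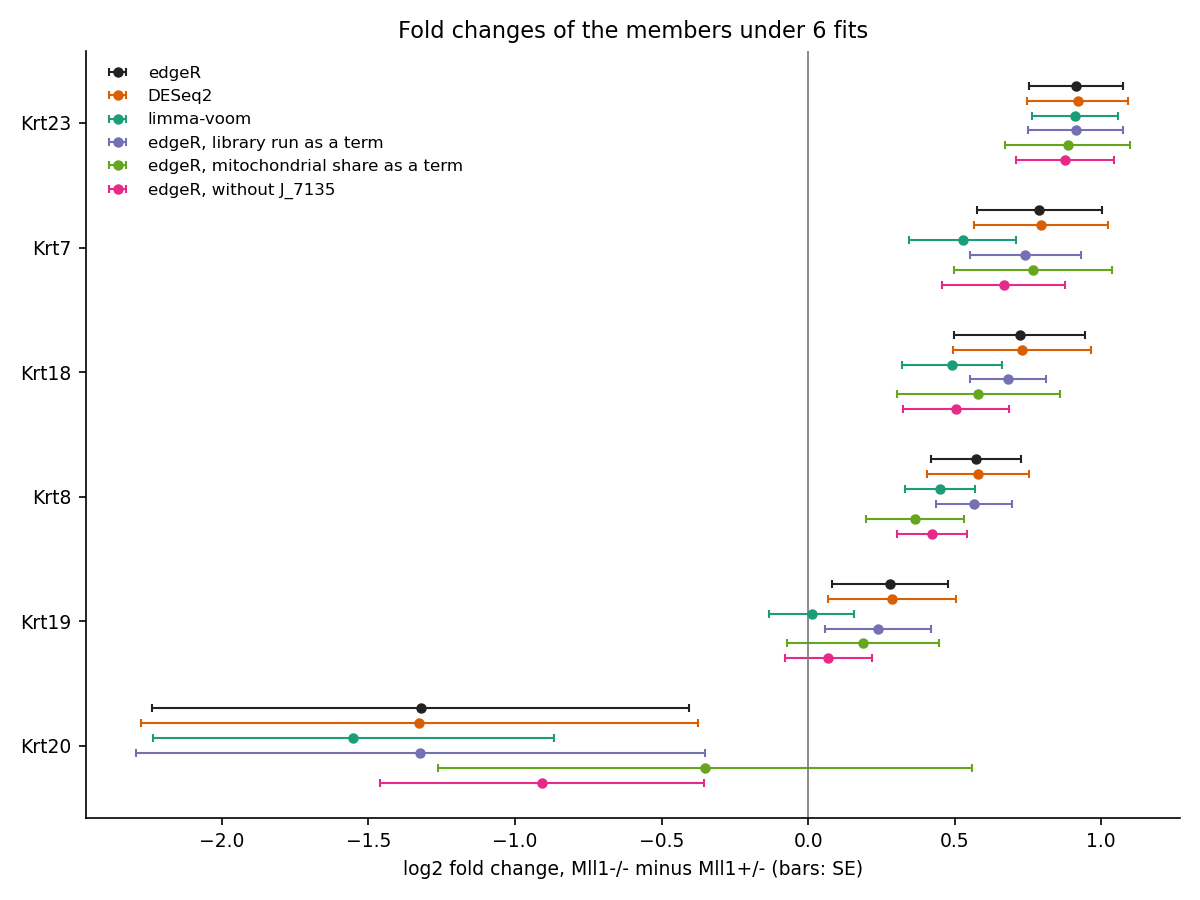
Log2 fold change (x axis, Mll1-/- minus Mll1+/-, with bars of 1 SE) of each keratin (y axis) under 6 fits, marked by colour. Krt23 stays between 0.88 and 0.92 in all 6, Krt7, Krt18 and Krt8 stay above 0 and are lower without J_7135, and Krt19 ranges from 0.01 to 0.29.

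The library numbers form 2 consecutive runs, J_7075, J_7079, J_7096 and J_7100 in the first and the other 4 in the second, each with 2 mice of either genotype; what else set the runs apart is not given in the sources used here. The differences were compared within them. On the log2 scale, Krt23 differed by 0.93 in the first run and by 0.91 in the second one. Krt8 differed by 0.46 and 0.65, Krt18 by 0.47 and 0.88, and Krt7 by 0.33 and 1.16, so these 3 were larger in the run that holds J_7135. Krt19 had no common direction, with -0.16 and 0.63. With the run as a term in the fit, the log2 fold changes were 0.91 for Krt23, 0.74 for Krt7, 0.68 for Krt18, 0.56 for Krt8, 0.24 for Krt19 and -1.32 for Krt20, none of them called. With the mitochondrial share of each library as a term, Krt8 was at 0.36, Krt18 at 0.58, Krt7 at 0.77 and Krt23 at 0.89. Krt8 moved by more than its SE and the other 3 by less. In that fit 2 of the 6 (Krt7 and Krt23) were higher at an unadjusted p under 0.05, against 3.41% of all genes, and Krt8 and Krt18 no longer were. Without J_7135 all 4 were, against 4.73%.

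Reads can be split between near-identical copies or left uncounted, which bears on Krt8 and Krt18. Of the 31-base words in the annotated transcripts of Krt8, 32.3% also occur in transcripts of other genes, nearly all of them in the processed pseudogene Krt8-ps (32.2%). For Krt18 the share was 11.4%, mostly with the processed pseudogene Gm5200 (9.31%), for Krt7 2.11% and for Krt19 0.439%, and Krt20 and Krt23 shared none. Krt8-ps held 93.1 CPM on average, or 16.0 to 22.6% of the sum of Krt8 and Krt8-ps, with the highest share in J_7135. Gm5200 was at 19.9 ± 5.74 against 11.6 ± 1.90 CPM (SD, n = 4 each) and its libraries did not overlap, whereas those of Krt8-ps and of Krt18 did. When the counts of the pseudogenes were added to their parent genes, the log2 fold changes were 0.60 for Krt8 and 0.72 for Krt18, close to the values of the single genes. Only uniquely mapped reads were counted. Reads that match both copies equally are missing from these sums, so the fit cannot show their effect. Without strand, reads of Krt8 cannot be told from those of the antisense gene AC139844.1 over 5.16% of its exonic bases; that gene averaged 4.20 and 4.98 CPM in the genotypes, far below Krt8.

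Per kilobase of exonic length, the keratins kept 1 order in all 8 libraries, namely Krt18, Krt8, Krt19, Krt23, Krt7 and Krt20. Their levels were 501 CPM per kb for Krt18, 205 for Krt8, 136 for Krt19, 35.3 for Krt23, 14.4 for Krt7 and 0.732 for Krt20 as means of the 8 libraries. Among the 16445 tested genes Krt18 stood at rank 141 by this measure, Krt8 at 361 and Krt19 at 515, whereas Krt20 stood at 13997. The annotated exons of Krt7 span 7049 bases, longer than its longest coding transcript of 4094 bases. On the length of the longest coding transcript Krt7 came to 24.8 CPM per kb and Krt19 to 160, and the order held in 6 of the 8 libraries, with Krt19 above Krt8 in J_7079 and Krt7 above Krt23 in J_7139.

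The sum of the 6 keratins was 1084 ± 303 CPM per kb in the libraries labelled Mll1-/- and 702 ± 72.3 in those labelled Mll1+/- (SD, n = 4 each). The libraries labelled Mll1-/- lay at 884 in J_7075, 817 in J_7096, 1484 in J_7135 and 1150 in J_7136, and the others at 689 in J_7079, 614 in J_7100, 718 in J_7134 and 789 in J_7139. These did not overlap, and as a share of the scaled counts the 6 genes together held 0.140 to 0.252% against 0.108 to 0.135%. The type II chains Krt7 and Krt8 summed to 264 ± 56.4 against 176 ± 15.1 CPM per kb, and the type I chains to 820 ± 251 against 527 ± 59.5. The 2 types thus differed by similar ratios, 1.50 and 1.56, and the level of type I over type II was 2.48 to 3.49 in libraries labelled Mll1-/- and 2.71 to 3.19 in the others. The ratio of Krt18 to Krt8 per kb was 1.97 to 2.96 against 1.97 to 2.44 and overlapped as well.

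**Figure D3:**
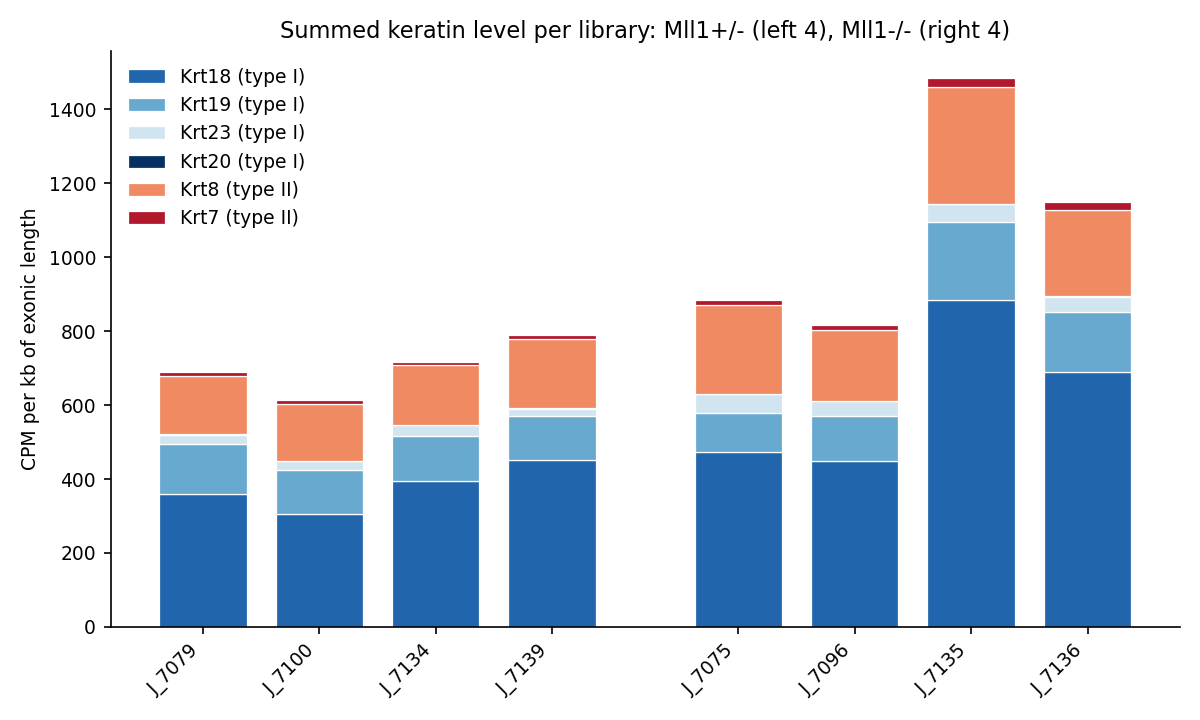
Summed level of the 6 keratins in CPM per kb of exonic length (y axis, starting at 0) in each library (x axis, named by mouse), stacked by gene with type I in blue and type II in red tones. Every bar of the libraries labelled Mll1-/- (817 to 1484) is taller than those labelled Mll1+/- (614 to 789), and Krt18 is the largest segment in each.

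Within this sum Krt18 made up 57.0 ± 3.28% in libraries labelled Mll1-/- and 53.6 ± 3.31% in the others, and Krt8 23.1 ± 3.02% and 23.6 ± 1.18% (SD, n = 4 each). Krt19 made up 13.7 ± 1.29% against 17.7 ± 2.26%. Its libraries did not overlap by this measure, but by a hair, with 14.94% in J_7096 and 14.946% in J_7139. Krt23 held 4.47 ± 1.14% against 3.52 ± 0.658%, Krt7 1.69 ± 0.229% against 1.51 ± 0.211% and Krt20 0.0428 ± 0.0355% against 0.151 ± 0.0390%. The shares of Krt20 did not overlap either, with 0.0771% in J_7136 and 0.0976% in J_7139, but they rest on few counts. The shares add up to the whole and are not independent, and the levels of Krt19 and Krt20 themselves overlapped between the genotypes.

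Across the 8 libraries the log2 CPM of 15 pairs of keratins were correlated, with exact permutation p over all pairings and adjustment over the 15 pairs. Krt8 and Krt18 were the closest (Pearson r = 0.93, exact p = 0.000397, adjusted 0.00595; Spearman rho = 0.95, exact p = 0.00114, adjusted 0.0171). Their r was 0.97 without J_7075 and J_7135, the libraries farthest from the median of Krt8, and that of the deviations from the genotype means was 0.85. Krt7 followed Krt18 (r = 0.91, exact p = 0.00486, adjusted 0.0194; rho = 0.88, exact p = 0.00724, adjusted 0.0461) and Krt8 (r = 0.88, exact p = 0.00258, adjusted 0.0193; rho = 0.86, exact p = 0.0107, adjusted 0.0461). Without J_7135 and J_7136 their r was 0.58 and 0.85, and that of the deviations was 0.79 and 0.67. Krt8 and Krt20 ran in opposite directions (r = -0.89, exact p = 0.00518, adjusted 0.0194; rho = -0.83, exact p = 0.0154, adjusted 0.0461). Their r without J_7075 and J_7135 was -0.49, and that of the deviations was -0.82. Krt23 and Krt8 had r = 0.80 (exact p = 0.0183, adjusted 0.0522) and rho = 0.83 (exact p = 0.0154, adjusted 0.0461). For Krt23 and Krt18 r was 0.70 (exact p = 0.0517, adjusted 0.0763). Of the deviations from the genotype means, Krt23 followed Krt8 with r = 0.20 and Krt18 with r = 0.07. Within the libraries labelled Mll1-/-, J_7135 and J_7075 held the most of both Krt8 and Krt23, whereas within those labelled Mll1+/- J_7139 held the most Krt8 and the least Krt23. By Pearson's r, 4 pairs had an adjusted p under 0.05, and 0 did without J_7135. The r of these pairs without that library was 0.85 for Krt8 and Krt18, 0.87 for Krt7 and Krt18, 0.83 for Krt7 and Krt8 and -0.72 for Krt8 and Krt20, over the other 7 libraries.

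**Figure D4:**
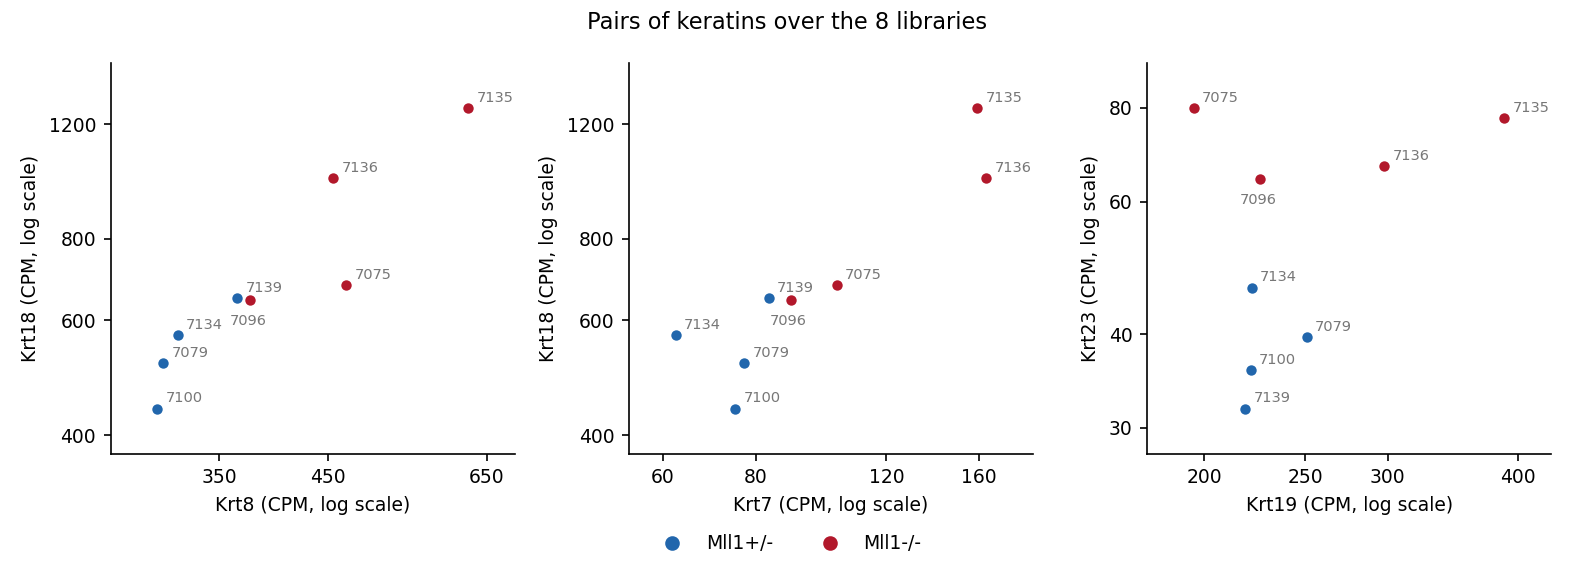
CPM of 3 pairs of keratins (log axes) in the 8 libraries, coloured by genotype and labelled with the last digits of the mouse. Krt18 climbs with Krt8 (r = 0.93) and with Krt7 (r = 0.91) up to J_7135, while Krt23 parts the genotypes at any level of Krt19 (r = 0.39).

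The genes most like a keratin over the 8 libraries were found by Pearson's r of log2 CPM among the tested genes. They were Slc25a22, Cdc45 and Exo1 for Krt8 (r = 0.99, 0.98 and 0.97), and Fermt1, Gm5200 and Tpm3-rs7 for Krt18 (each r = 0.98). Of these, Gm5200 shares words with Krt18 as given above. They were Fgd2, Sf3b2 and Pacs2 for Krt7 (r = 0.99, 0.99 and 0.98), Tanc2, Nkd1 and Crb3 for Krt23 (r = 0.99, 0.97 and 0.97), and Tradd, Elmo3 and Rfxank for Krt19 (r = 0.98, 0.98 and 0.97). For Krt20 they were 4931428F04Rik, Gm47583 and Hist1h3d (r = 0.99, 0.99 and 0.98). With so few libraries many genes reach such values, and 53 other genes lay closer to Krt8 than Krt18 did.

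Outside the simple epithelial set, 49 genes carry a keratin symbol, and 8 of them passed the filter on low counts; 31 had under 10 counts in every library. Apart from Krt8-ps (log2 fold change 0.72, SE 0.27) their levels were low, and 0 of the 8 were called in edgeR or in DESeq2. Krt10, a keratin of the suprabasal epidermis, was the most abundant of them and close to equal, at 26.6 ± 7.16 against 26.2 ± 3.94 CPM (SD, n = 4 each). Krt39, a hair keratin that lies near Krt20 and Krt23 on chromosome 11, was higher without overlap, as 3.34% of all genes were. It was at 5.21 ± 3.03 against 1.20 ± 1.10 CPM (SD, n = 4 each; log2 fold change 2.13, SE 0.94, adjusted p = 0.543, edgeR). The other 5 overlapped, with log2 fold changes of 0.96 for Krt222, 1.55 for Krt32, 0.49 for Krt15, 0.29 for Krt87 and -0.01 for Krt31. The median of the 8 was 0.60. At an unadjusted p under 0.05 (edgeR), 2 of the 8 (Krt8-ps and Krt39) were higher, against 5.4% of all genes. Krt8-ps, which is also part of that median, shares 31-base words with Krt8 as given above, so its reads may be those of Krt8. Krt39 was at 0 CPM in J_7139.

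Keratin filaments are tied to the cell membrane at desmosomes and hemidesmosomes, and the 15 genes listed for these anchors were all tested. Their median log2 fold change was -0.09, with 7 above and 8 below 0 and 0 called in edgeR. Desmoplakin (Dsp), which links keratin filaments to the desmosome, was lower without overlap, as 2.94% of all genes were, at 189 ± 9.91 against 245 ± 12.9 CPM (SD, n = 4 each; log2 fold change -0.37, SE 0.10, adjusted p = 0.262, edgeR). Plakoglobin (Jup), which joins desmosomal cadherins to desmoplakin and is a relative of β-catenin, was higher without overlap, at 31.1 ± 9.07 against 18.6 ± 1.218 CPM (SD, n = 4 each; log2 fold change 0.74, SE 0.22, adjusted p = 0.381, edgeR). Dsp differed by -0.37 in either run, and Jup by 0.32 and 1.07. DESeq2 called both (adjusted p = 0.0263 and 0.0918). The most abundant per kb, the integrin Itga6 (-0.20), the desmocollin Dsc2 (-0.13) and the desmoglein Dsg2 (-0.17), overlapped, as did the remaining 10. The anchors therefore did not share a direction with Krt8, Krt18, Krt7 and Krt23.

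**Figure D5:**
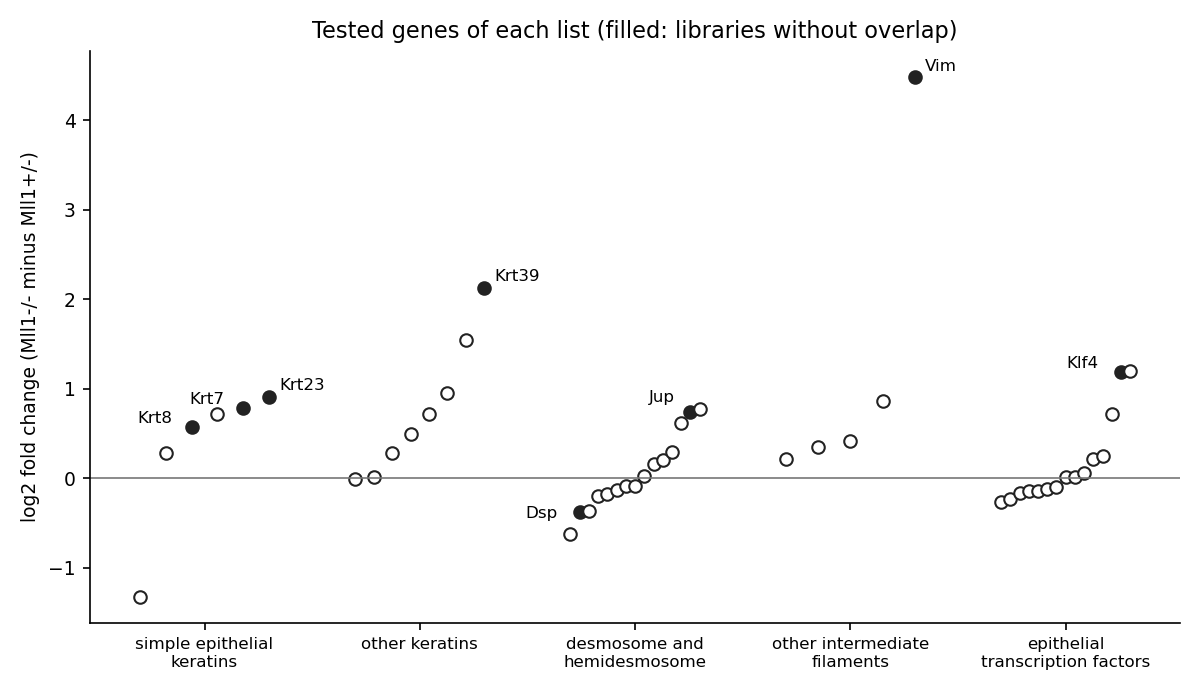
Log2 fold change (y axis, Mll1-/- minus Mll1+/-) of each tested gene of the simple epithelial keratins and of 4 other lists (x axis), with filled points where the libraries of the genotypes do not overlap. Krt8, Krt7 and Krt23 are filled, Vim stands apart at 4.48, and the anchor genes scatter around 0 with Dsp at -0.37 and Jup at 0.74.

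Of 16 other intermediate filament genes, 5 passed the filter. Vimentin (Vim), the filament protein of mesenchymal and migrating cells, had the largest difference, at 116 CPM in J_7075, 47.4 in J_7096, 44.3 in J_7135 and 81.6 in J_7136 against 3.11 in J_7079, 4.78 in J_7100, 4.89 in J_7134 and 0.194 in J_7139. The groups were far apart in both runs (4.22 and 5.57 on the log2 scale), and the log2 fold change was 4.48 (SE 0.70, adjusted p = 0.108, edgeR; 2.54e-05, DESeq2). The stromal markers Col1a1, Col1a2, Col3a1, Pdgfra, Dcn and Lum summed to 0.919 to 2.82 CPM in the same libraries labelled Mll1-/- and to 1.12 to 2.00 in the others, and the immune markers to 1.24 to 6.26 against 3.05 to 6.50 CPM. Unlike Krt8, Krt18 and Krt7, Vim was lowest of its group in J_7135. The lamins, which line the nucleus, overlapped, with log2 fold changes of 0.36 for Lmna, 0.42 for Lmnb1 and 0.22 for Lmnb2, as did the neurofilament gene Nefh (0.86).

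Of 16 genes for transcription factors and splicing factors of epithelial cells, 15 passed the filter and their median log2 fold change was 0.01. Klf4, a factor of goblet and other differentiated cells, was higher without overlap, at 29.7 ± 6.70 against 12.99 ± 4.45 CPM (SD, n = 4 each; log2 fold change 1.19, SE 0.28, adjusted p = 0.243, edgeR; 0.00631, DESeq2). The most abundant per kb, Elf3 (-0.14), Ehf (-0.16) and Klf5 (-0.22), overlapped, as did the intestinal factor Cdx2 and the rest of the list. The tested genes within 100 kb of Krt8 or Krt18, namely Spryd3, Tns2, Eif4b and AC139844.1, had log2 fold changes of -0.25 to 0.78 and 0 of them had an unadjusted p under 0.05. Those within 100 kb of Krt7 (-0.94 to 0.29) and of Krt19 (-0.01 to 1.55) had 0 as well. Within 100 kb of both Krt20 and Krt23 lay Krt10 (0.02) and Krt39 (2.13), of which Krt39 had an unadjusted p under 0.05 (edgeR). Of all genes, 5.4% were higher at that threshold.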

How the data were processed

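The library, labelled with 1 mouse each, was the unit of replication (4 against 4); whether J_7135 holds a single mouse was not tested. The members and all gene lists were chosen with earlier results of these data known. The authors aligned Smart-seq2 reads to mm10 with GSNAP, counted uniquely mapped reads per gene of the Ensembl annotation with featureCounts 1.6.3 and deposited raw counts; the protocol has no molecular identifiers, so intervals and floors cover counting error only. They also deposited a signal table of counts divided by a size factor per library, used here for gene positions and as an alternative for the shares. The exonic length deposited beside the counts was used for values per kb. The 92 spike-in rows were left out.

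Genes were filtered with filterByExpr, scaled by TMM and tested with edgeR 4.0.16 (robust quasi-likelihood test with genotype as its term, R 4.3.3); DESeq2 1.42.0 and limma 3.58.1 were alternatives. The tests were checked on a single draw of simulated data with edgeR's estimates of spread and few genes changed. There DESeq2 made more false calls for its number of calls than edgeR and limma-voom (40.2% against 5.88% and 5.48%). It also called more of the genes simulated with a log2 fold change of 1 (37.5% against 19.8% and 16.7%). Named were the 6 members, Kmt2a, the other tested keratins, and of each list the genes without overlap or called and the 3 most abundant per kb, and the 3 tested genes most correlated with each member. Names came from the second table (25485 genes) or the reference names. Pseudogenes, neighbours, Olfm4, Sox17 and other marker genes were named after their values were seen.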

Additional observations from a re-analysis of the deposited data

Results flagged for a closer look

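Of 12 groups of 4 libraries (6 keratins in 2 genotypes), the gap test on the highest and the lowest library picked out 1. Krt19 in J_7079, labelled Mll1+/-, was at 250.6 CPM, while the other 3 libraries of its group lay between 219 and 222 CPM. The gap was 0.902 of the range of the group, above Dixon's 95% critical value for 4 samples. Chance picks out about 1 in 20 such groups. The same library was not the highest of its genotype for Krt8, Krt18, Krt7, Krt20 or Krt23.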

How the results depend on the processing

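Over the 107 alternative values of the 6 log2 fold changes, 0 changed direction, 100 stayed on their side of the threshold and 7 passed it, namely Krt7 (0.80), Krt8 (0.58), Krt18 (0.73) and Krt23 (0.92) in DESeq2, and Krt23 in limma-voom (0.91), among genes with at least 1 count (0.92) and where each library had to hold 10 counts of a gene (0.91, a filter that Krt20 did not pass). The keratins called were accordingly 4, 1, 1 and 1 under these settings, and the cause was not tested. The count of all genes called was 394 in DESeq2, 103 in limma-voom, 47 and 34 under the other filters, 8 with upper-quartile scaling, and 0 with the library run or the mitochondrial share as a term. DESeq2 also called 2 anchor genes, 1 other intermediate filament gene and 1 transcription factor; Vim was called in limma-voom, among genes with at least 1 count and without J_7135 (1 each).

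Leaving out each library in turn gave 0 to 45 genes called, 45 of them without J_7135, 2 without J_7075 and 0 without any of the other 6, and 0 keratins, anchor genes, other keratins or transcription factors in each case, with 0 to 1 other intermediate filament genes. The log2 fold changes ranged from 0.65 to 0.93 for Krt7, 0.42 to 0.67 for Krt8, 0.50 to 0.85 for Krt18, 0.07 to 0.41 for Krt19, -1.98 to -0.91 for Krt20 and 0.83 to 1.01 for Krt23. The correlated pairs numbered 0 to 9, with 9 without J_7075, 8 without J_7136 and 0 without J_7135. On the longest coding transcript the share of Krt7 was 2.65% and that of Krt19 17.8%, and on the exonic length, with each library left out, these shares stayed between 1.54 and 1.65% and between 15.1 and 16.2%. The fits with mitochondrial genes left out, with the mitochondrial share as a term and with pseudogene counts added, and the coding length, were chosen after seeing the data. With 4 libraries a genotype, permutation p-values cannot go below 0.0286.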
